A study of Homo sapiens with 12 samples.

Results

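Mucin genes in HT29 cells were chosen by symbol, whatever their expression. The 10 genes were the gel-forming mucins MUC2, MUC5AC and MUC5B and the membrane-bound mucins MUC1, MUC3A, MUC4, MUC12, MUC13, MUC17 and MUC20. Each symbol was matched to 1 of the 60675 Ensembl gene IDs of the count table. HT29 is a human colorectal adenocarcinoma line, and 12 RNA libraries from this single line were used, 3 for each of 4 groups. The cells were kept for 24 h with a water extract of Aconitum carmichaeli Debeaux (ACD) or with the vehicle alone. The extract was given at a low (20 µg/mL), medium (100 µg/mL) or high dose (500 µg/mL). In all 4 groups the vehicle was PBS with 2% DMSO, which was added to the growth medium. The groups follow the titles and the treatment field, although a longer note on the treatment names Poria cocos instead. Nothing in the labels says whether the replicates were separate cultures, so the p-values measure the spread between these libraries, which may be technical.

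Mucins are large glycoproteins whose tandem repeats are rich in serine and threonine, the residues that carry O-linked sugar chains. Gel-forming mucins are secreted, mainly by goblet cells, and build the mucus layer over the epithelium. Membrane-bound mucins stay on the apical surface of the cell, where they form the glycocalyx and can take part in signalling.

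To show what these repeats look like, 1 repeat unit is given for MUC3A, MUC17 and MUC20, membrane-bound mucins described below whose repeats lie in 1 coding exon. The units were read from the GRCh38 genome in the direction of transcription, and the capitals mark codons for serine or threonine. The unit of MUC3A lies at chr7:100958656-100958706 in exon 2 of 12, that of MUC17 at chr7:101034174-101034350 in exon 3 of 13 and that of MUC20 at chr3:195725450-195725506 in exon 2 of 4, all on the plus strand and in coding sequence.
MUC3A: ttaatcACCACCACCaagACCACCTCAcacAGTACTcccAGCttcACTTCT
MUC17: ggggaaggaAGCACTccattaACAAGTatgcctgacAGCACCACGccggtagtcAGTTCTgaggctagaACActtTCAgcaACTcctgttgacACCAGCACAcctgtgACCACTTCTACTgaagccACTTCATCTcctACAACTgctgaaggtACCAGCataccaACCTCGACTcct
MUC20: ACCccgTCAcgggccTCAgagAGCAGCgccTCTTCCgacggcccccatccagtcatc

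In the MUC3A unit, 11 of 17 codons were for serine or threonine, and the share over the whole run of repeats was 66%. This share was 49.3% in the run of MUC17 and 37.3% in that of MUC20. In MUC20 the next copy of the unit was identical in all 57 bases, and in MUC17 it was identical in 150 of 177 bases. In 100-base windows, the read length of the study, the sequence occurred more than once in the same transcript for 49.7% of the windows of MUC12, 19.1% of MUC5B, 13.9% of MUC2, 13.3% of MUC4, 10.5% of MUC5AC and 9.08% of MUC20. The value was 0.36% for MUC17 and 0% for MUC1, MUC3A and MUC13. A read from such a window still belongs to 1 gene. The number of repeats in HT29 cells was not measured here.

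Windows shared with another gene are a different matter, since the expected counts of RSEM divide such reads between the genes. MUC20 shared 28.1% of its windows, with MUC20P1, its pseudogene, and with MUC20-OT1, which overlaps it on the same strand. MUC5B shared 1.61% of its windows with MUC5B-AS1, MUC3A shared 1.53% with ENSG00000274993 and MUC17 shared 1.19% with RN7SKP54. Windows were taken from the longest transcript of each mucin, and the other 6 mucins shared none with a transcript of another gene. Over all its annotated exons, MUC1 overlaps ENSG00000273088 on the same strand by 48 bases. The values of MUC20 are thus uncertain, and MUC3A, MUC5B and MUC12 overlap a gene on the opposite strand, whose reads cannot be told apart because the strand setting of RSEM is not given in the sources used here. No gene was matched by the symbol MUC3B, so reads that MUC3A may share with MUC3B were not examined.

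The genes lie in 3 clusters and at 2 single sites of GRCh38. MUC2 (ENSG00000198788, chr11:1074875-1110511), MUC5AC (ENSG00000215182, chr11:1157953-1201138) and MUC5B (ENSG00000117983, chr11:1223066-1262172) are neighbours on chromosome 11. MUC3A (ENSG00000169894, chr7:100949534-100968347), MUC12 (ENSG00000205277, chr7:100969565-101018939) and MUC17 (ENSG00000169876, chr7:101020072-101058859) follow each other on chromosome 7. MUC20 (ENSG00000176945, chr3:195720884-195741123) and MUC4 (ENSG00000145113, chr3:195746765-195811973) are neighbours on chromosome 3, where MUC13 (ENSG00000173702, chr3:124905442-124953819) has a site of its own. MUC1 (ENSG00000185499, chr1:155185824-155192916) is on chromosome 1.

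The libraries held between 15941255 and 33866644 expected counts. The level of a gene is given in counts per 1000000 (CPM) of the library size after TMM scaling. All 11 markers of colon epithelium passed the filter on low counts, and their summed level was between 11370 and 13600 CPM, whereas the summed level of the 5 fibroblast markers was at most 2.90 CPM, that of the 3 endothelial markers at most 2.57 CPM, and PTPRC, the pan-leukocyte marker, at most 0.123 CPM. The level of LYZ, lysozyme, was between 1262 and 1886 CPM and made up nearly all of the leukocyte list. The 2 mitochondrial ribosomal RNAs took between 0.982% and 2.18% of the counts in the other groups and between 11.3% and 12.5% at the high dose. High-dose replicate 2, the library with the lowest total, stood apart from the other high-dose libraries, and the high-dose results that rest on it are given with and without it. An alternative fit took the library sizes without the mitochondrial genes, and MUC3A was still called in it at the high dose. Beyond that fit and those without this library, the part of the ribosomal RNA share and of this library in the differences at the high dose was not tested.

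MUC13 had the highest level per length in vehicle cells, with 38.0 ± 0.586 CPM per kb of exon (SD, n = 3). The levels per kb of MUC20 (8.38 ± 0.105), MUC5AC (6.69 ± 1.02), MUC2 (2.61 ± 0.365) and MUC3A (2.32 ± 0.175) followed. The next levels per kb were those of MUC17 (0.413 ± 0.0926), MUC12 (0.372 ± 0.0653) and MUC1 (0.276 ± 0.0965), and those of MUC5B (0.0310 ± 0.00742) and MUC4 (0.0150 ± 0.00694) were the lowest. The vehicle libraries of MUC2 and MUC3A overlapped, and so did those of MUC17, MUC12 and MUC1, so these neighbours in the order did not differ beyond their spread. The stomach- and airway-type mucin MUC5AC had a higher level per length than MUC2, the main gel-forming mucin of the normal colon, in the vehicle cells. MUC4 had between 1 and 14 counts per library, MUC5B between 4 and 34 and MUC1 between 4 and 43, so their changes had little precision. All 10 genes passed the filter on low counts and were among the 15374 genes tested.

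**Figure D1:**
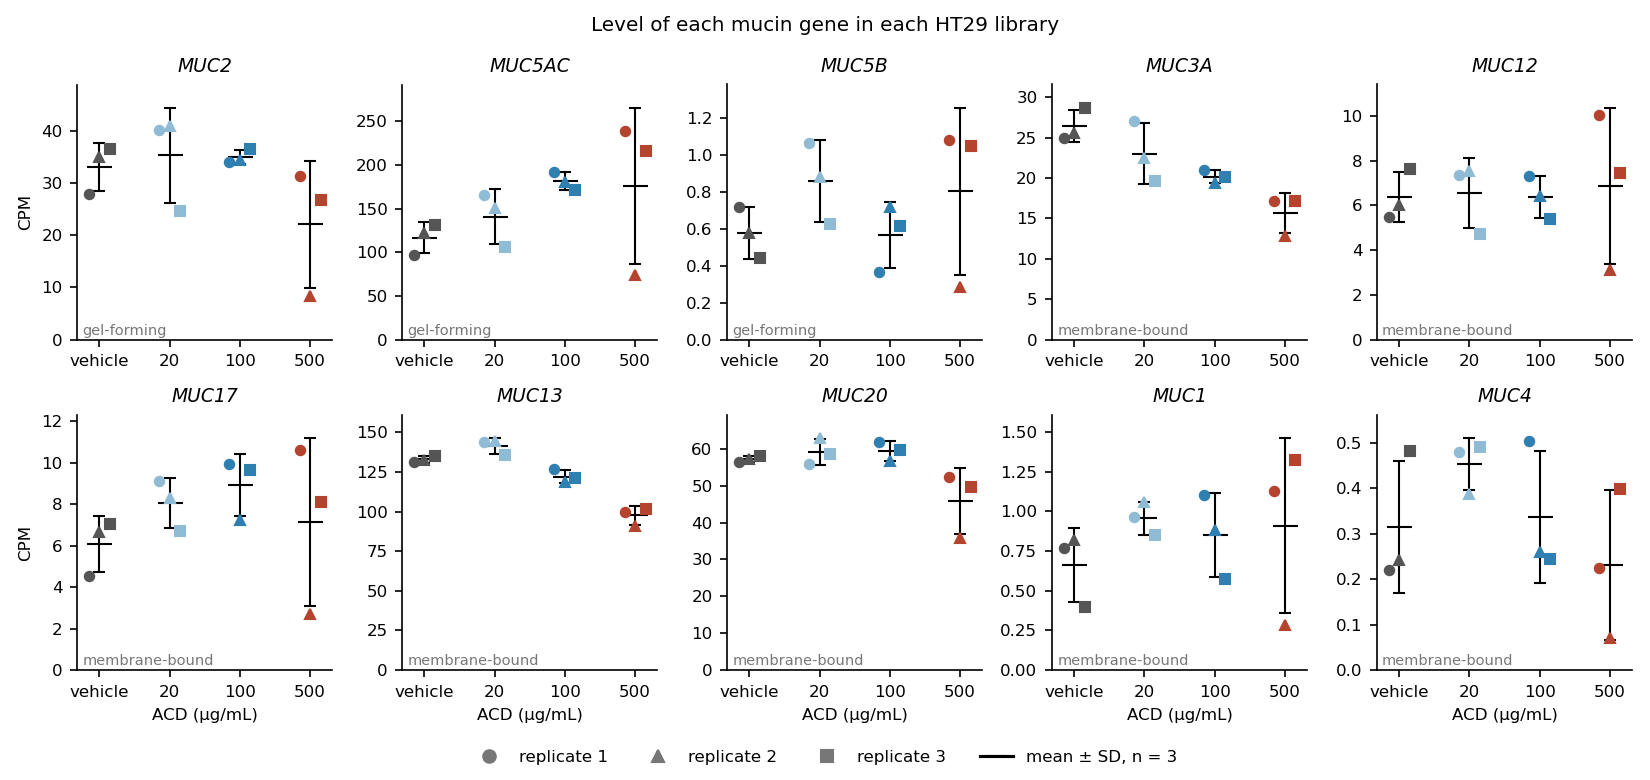
Level of each mucin gene in CPM (linear axis from 0, own scale in each panel) in each library of vehicle and of ACD at 20, 100 and 500 µg/mL, with replicates 1 to 3 as circle, triangle and square, and the mean ± SD in black. MUC3A, MUC13 and MUC20 lie lowest in the 3 high-dose libraries, and high-dose replicate 2 is the lowest library in every panel.

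Among the gel-forming mucins, MUC5AC had a higher level with ACD in most libraries, MUC2 did not, and neither passed the test at any dose. The level of MUC5AC in the vehicle libraries was 96.9, 122 and 132 CPM (replicates 1 to 3). The low-dose libraries had 166, 151 and 106 CPM and the medium-dose libraries 192, 180 and 172 CPM. The high-dose libraries had 239, 73.8 and 216 CPM. All medium-dose libraries and 2 of the 3 high-dose libraries lay above every vehicle library, whereas high-dose replicate 2 lay below every vehicle library. Against vehicle, the log2 fold change of MUC5AC was 0.27 (SE 0.32) for the low dose and 0.64 (SE 0.32, adjusted p = 0.486) for the medium dose. The high dose gave 0.60 (SE 0.32, adjusted p = 0.339 by edgeR's quasi-likelihood test). A gene was called when its adjusted p was under 0.05 and its fold change over 1.5. Without high-dose replicate 2, MUC5AC was called at the high dose, with a log2 fold change of 0.96 (SE 0.19, adjusted p = 0.0105), a 1.94-fold rise. The adjusted p of MUC5AC at the high dose ranged from 3.02e-05 to 0.685 over the alternatives. At the medium dose MUC5AC was called when edgeR was fitted to the vehicle and medium-dose libraries alone (adjusted p = 0.00715), and its adjusted p ranged from 5.95e-09 to 0.90 over the alternatives.

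MUC2 had 27.8, 34.9 and 36.5 CPM in the vehicle libraries. The low-dose libraries had 40.1, 41.0 and 24.7 CPM, the medium-dose libraries 34.1, 34.4 and 36.4 CPM, and the high-dose libraries 31.3, 8.28 and 26.8 CPM. The libraries overlapped between vehicle and each dose, and high-dose replicate 2 was the lowest of all 12. For MUC2 the log2 fold changes were 0.09 (SE 0.33) with the low dose, 0.08 (SE 0.33) with the medium dose and -0.56 (SE 0.34, adjusted p = 0.398 by edgeR's quasi-likelihood test) with the high dose, where the 95% interval ran from -1.29 to 0.18. Without high-dose replicate 2 it was -0.20 (SE 0.21, adjusted p = 0.545, and between 0.195 and 0.711 over the alternatives). Its value was below 0 under each of the 23 alternatives at the high dose.

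MUC5B, a mucin of the airways and salivary glands, was between 0.283 and 1.08 CPM in all libraries. Its log2 fold change was 0.59 (SE 0.40, adjusted p = 0.463 by edgeR's quasi-likelihood test) at the high dose and 0.89 (SE 0.32, adjusted p = 0.0624, and between 0.0624 and 0.844 over the alternatives) without replicate 2. The gel-forming mucin MUC6 was between 0.142 and 1.06 CPM and was not called at any dose, and MUC19 had at most 0.0326 CPM in any library.

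Among the membrane-bound mucins, MUC3A fell at the high dose and MUC13 was lower by less than 1.5-fold. MUC3A was the 1 mucin called among the 10, a share to be set beside 2.93% of all genes tested (451 of 15374). Fewer cells with MUC3A RNA and less of it per cell cannot be told apart in bulk RNA.

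MUC3A, an intestinal membrane mucin of the apical brush border, had 25.0, 25.6 and 28.7 CPM in the vehicle libraries. Low-dose libraries had 27.0, 22.4 and 19.6 CPM, medium-dose libraries 21.0, 19.4 and 20.1 CPM and high-dose libraries 17.2, 12.9 and 17.1 CPM. All high-dose libraries lay below every library of the other groups, and the medium-dose libraries lay below every vehicle library. At the high dose its log2 fold change was -0.74 (SE 0.13, adjusted p = 0.00535 by edgeR's quasi-likelihood test), or 1.67-fold lower. Without high-dose replicate 2 it was still called, with a log2 fold change of -0.62 (SE 0.11, adjusted p = 0.000728). In a fit by edgeR of just the 6 vehicle and high-dose libraries the call was lost (log2 fold change -0.74, adjusted p = 0.0654), and the adjusted p ranged from 9.88e-06 to 0.0654 over the alternatives. Its log2 fold change was -0.39 (SE 0.13, adjusted p = 0.242) with the medium dose and -0.20 (SE 0.13, adjusted p = 0.758) with the low dose.

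MUC13, a membrane mucin of the intestinal epithelium, had 131, 132 and 135 CPM in the vehicle libraries and 144, 145 and 136 CPM at the low dose. Medium-dose libraries had 127, 119 and 121 CPM and high-dose libraries 99.7, 91.2 and 102 CPM. No high-dose library reached any library of the other groups, and replicate 2 was close to the other high-dose libraries. Its log2 fold change against vehicle was -0.45 (SE 0.07, adjusted p = 0.00154 by edgeR's quasi-likelihood test), which was 1.36-fold lower and under the minimum fold change. Without high-dose replicate 2 it was -0.40 (SE 0.06, adjusted p = 9.23e-05). With edgeR on these groups alone its adjusted p was 0.0787, and the adjusted p ranged from 1.37e-10 to 0.0787 over the alternatives. MUC13 and MUC3A were the 2 of 10 mucins with an adjusted p under 0.05 at the high dose when no fold change was required, which was the case for 5.77% of all genes tested.

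MUC20, a membrane mucin known as a partner of the receptor MET, had 56.5, 57.4 and 58 CPM in the vehicle libraries and 52.3, 35.8 and 49.6 CPM at the high dose. The low and medium doses together ranged from 56.0 to 62.9 CPM. Its high-dose libraries lay below all others, and replicate 2 was the lowest. The log2 fold change at the high dose was -0.31 (SE 0.11, adjusted p = 0.145 by edgeR's quasi-likelihood test), and without replicate 2 it was -0.17 (SE 0.06, adjusted p = 0.0756, and between 0.0195 and 0.479 over the alternatives). For its pseudogene MUC20P1 the log2 fold change was -0.06 (SE 0.12), and for the overlapping MUC20-OT1 it was -0.28 (SE 0.11).

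MUC17, like MUC3A a mucin of the brush border and its neighbour on chromosome 7, had 4.51, 6.67 and 7.03 CPM in the vehicle libraries. It had 9.10, 8.32 and 6.71 CPM in the low-dose, 9.92, 7.21 and 9.62 CPM in the medium-dose and 10.6, 2.69 and 8.09 CPM in the high-dose libraries. The medium-dose libraries lay above every vehicle library, and high-dose replicate 2 lay below every other library. The log2 fold changes of MUC17 were 0.40 (SE 0.33) with the low dose, 0.53 (SE 0.33) with the medium dose and 0.27 (SE 0.34, adjusted p = 0.720 by edgeR's quasi-likelihood test) with the high dose. Without replicate 2 the last was 0.58 (SE 0.20, adjusted p = 0.0605, and between 0.0179 and 0.942 over the alternatives), and without high-dose replicate 1 it was -0.08, so that its direction rested on 1 library.

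MUC12, which lies between MUC3A and MUC17, had 5.50, 6.0 and 7.65 CPM in the vehicle libraries and 10.0, 3.12 and 7.44 CPM at the high dose. The log2 fold change of MUC12 was 0.15 (SE 0.31, adjusted p = 0.850 by edgeR's quasi-likelihood test) at the high dose, 0.43 (SE 0.20) without replicate 2 and -0.19 without replicate 1. Of the 3 neighbours on chromosome 7, MUC3A thus kept its direction at the high dose when single libraries were left out, and MUC12 and MUC17 did not.

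MUC1, the broadly expressed epithelial mucin, was between 0.283 and 1.32 CPM and MUC4 between 0.0708 and 0.505 CPM over all libraries. Their log2 fold changes at the high dose were 0.56 (SE 0.42, adjusted p = 0.516) and -0.23 (SE 0.51, adjusted p = 0.861 by edgeR's quasi-likelihood test). Without replicate 2 they were 0.88 (SE 0.31, adjusted p = 0.0598, and between 0.0357 and 0.876 over the alternatives) and 0.06 (SE 0.48). The membrane-bound mucin MUC16 had at most 1.37 CPM in any library, MUC15 and MUC21 at most 0.0708 CPM, and MUC22 was at 0 counts in every library, while MUC3B was not matched by symbol.

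**Figure D2:**
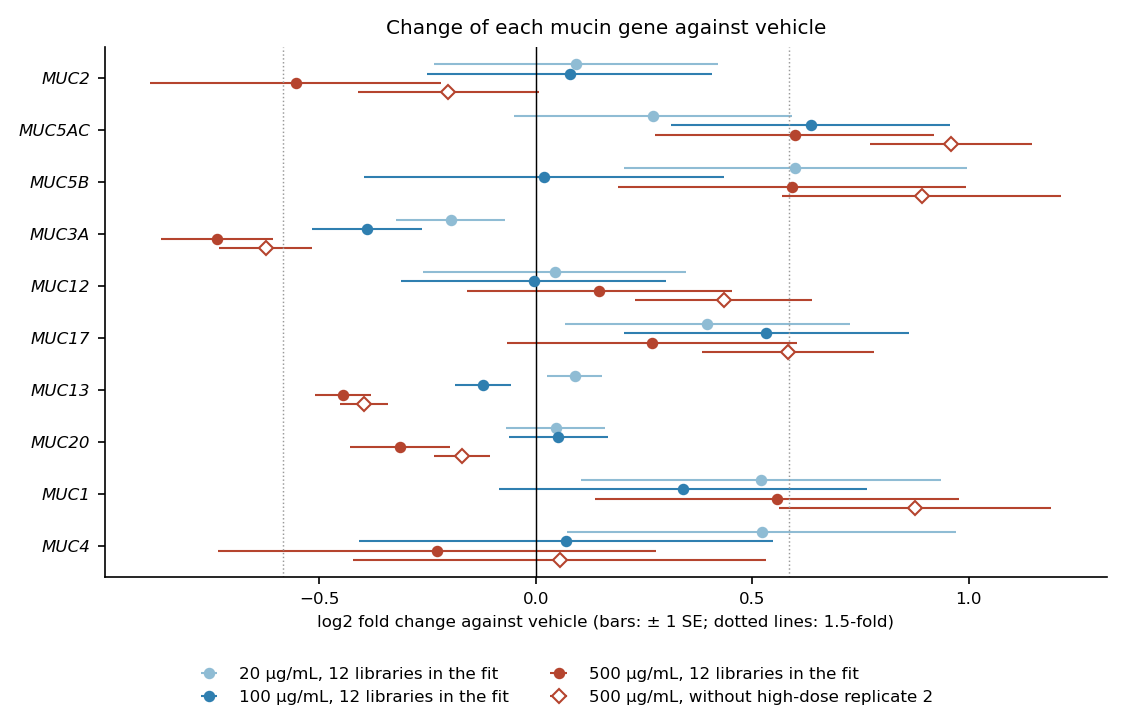
Log2 fold change against vehicle of each mucin gene (points, bars ± 1 SE) at 20, 100 and 500 µg/mL in the fit of 12 libraries, and at 500 µg/mL without high-dose replicate 2 (open diamonds). MUC3A at 500 µg/mL lies at -0.74 with and -0.62 without that library, whereas MUC5AC moves from 0.60 to 0.96 and MUC2 from -0.56 to -0.20.

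No mucin was called at the medium dose, where 0.676% of all genes tested were called, or at the low dose, where 0.111% were. At an unadjusted p under 0.05 there was 1 mucin (MUC3A) with the medium dose, against 11.7% of all genes, and 0 with the low dose, against 7.95%. DESeq2 on all libraries likewise called none at either dose. The libraries of 4 mucins did not overlap with vehicle at the medium dose (MUC5AC and MUC17 higher, MUC3A and MUC13 lower), of 3 at the high dose (MUC3A, MUC13 and MUC20, all lower) and of 2 at the low dose (MUC1 and MUC13, both higher). Over all genes tested, the libraries did not overlap for 28.7% (medium dose), 22.0% (high dose) and 21.0% (low dose).

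Between the doses, no mucin met both thresholds. The called share of all genes was 1.58% for the high against the low dose, 0.488% for the high against the medium dose and 0.104% for the medium against the low dose. MUC13 had a log2 fold change of -0.54 (SE 0.07, adjusted p = 0.000569 by edgeR's quasi-likelihood test) between the high and low doses, and its adjusted p was above 0.05 in 1 of 23 alternatives (0.0525, edgeR on these groups alone). Between the high and medium doses it had -0.32 (SE 0.07, adjusted p = 0.0410), and the adjusted p was above 0.05 in 15 of 23 alternatives, the highest being 0.453 with edgeR on these groups alone. MUC3A had -0.54 (SE 0.13, adjusted p = 0.0459) between the high and low doses, and its adjusted p was above 0.05 in 13 of 23 alternatives, the highest being 0.301 with edgeR on these groups alone. With no minimum fold change these were 2 of 10 mucins against 2.98% of all genes for the high and low doses, and 1 of 10 against 0.891% for the high and medium doses. Without low-dose replicate 3, in which MUC3A had its lowest low-dose level, MUC3A was called between the high and low doses.

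Both classes were also summed per library as CPM per kb of exon, as a description with no test. The gel-forming sum was 9.33 ± 1.38 in vehicle cells (SD, n = 3). It was 10.9 ± 2.50, 13.2 ± 0.496 and 11.9 ± 6.10 with the low, medium and high doses. At the high dose the 3 libraries had 16.2, 4.90 and 14.6, so replicates 1 and 3 lay above every vehicle library and replicate 2 below every one. The membrane-bound sum was 49.8 ± 0.921, 52.5 ± 1.99, 46.7 ± 1.89 and 37.3 ± 3.78 in the same order of groups, and every high-dose library (39.4, 32.9 and 39.5) lay below every other library. The membrane-bound sum at the high dose was 0.749 of that in vehicle, and MUC13 made up most of it. Gel-forming genes held 15.7% ± 1.77 of the sum of both classes in vehicle, and 17.1% ± 2.88, 22.0% ± 0.445 and 23.0% ± 8.77 with the low, medium and high doses. The share was 29.1%, 13.0% and 26.9% in the high-dose replicates. Summed as CPM with no division by length, which gives long genes more weight, the gel-forming share was 39.4% ± 3.02 in vehicle, and 42.1% ± 4.8, 49.8% ± 0.823 and 50.5% ± 12.5 with the low, medium and high doses.

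**Figure D3:**
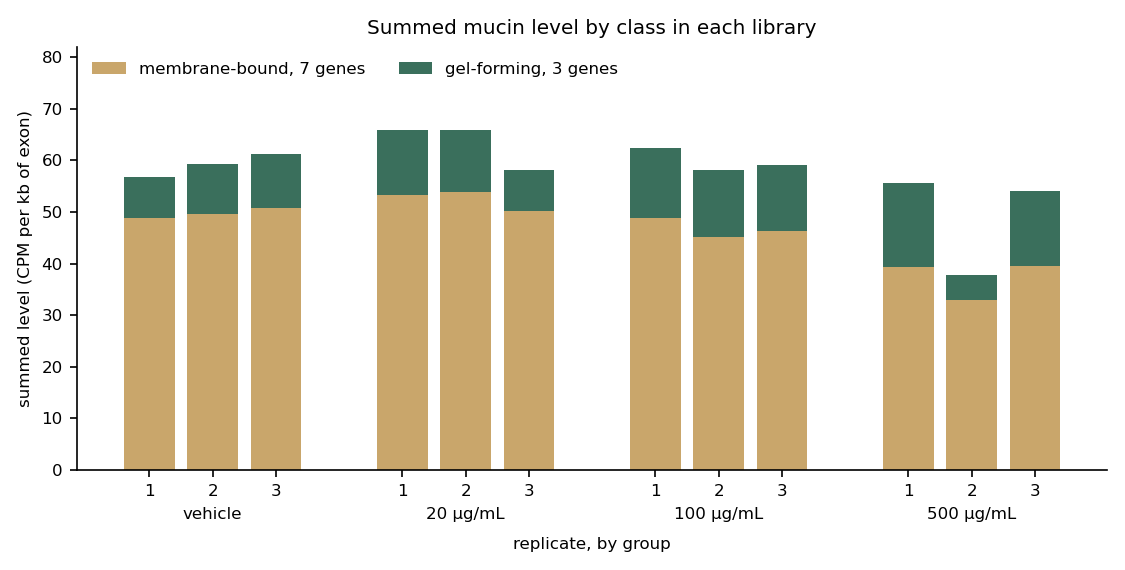
Summed level of the 7 membrane-bound and 3 gel-forming mucins in CPM per kb of exon (stacked bars from 0), 1 bar per library, with replicates 1 to 3 of each group side by side. The membrane-bound sum is lowest in the 3 high-dose libraries (32.9 to 39.5), and the gel-forming sum is 16.2 and 14.6 in high-dose replicates 1 and 3 but 4.90 in replicate 2.

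High-dose replicate 2 differed from replicates 1 and 3 in 6 of the mucins far more than in most genes of at least 5 CPM. Of these 6, MUC1 and MUC5B were below that level, with 4 counts each in this library. Its log2 difference from the mean of both, after adding 0.25 CPM, was -1.77 for MUC2, -1.70 for MUC17, -1.62 for MUC5AC, -1.46 for MUC1, -1.40 for MUC12 and -1.30 for MUC5B. Of 10626 genes with a mean of at least 5 CPM, only 0.122% were as low in that library as MUC2, 0.160% as low as MUC17, 0.188% as low as MUC5AC, 0.311% as low as MUC1, 0.376% as low as MUC12 and 0.508% as low as MUC5B. MUC1, with 2.40 kb of exon, is the shortest of the 10 genes and the only short gene among these 6. The longest, MUC4 with 21.0 kb, was at -0.79, and 5.36% of the genes were as low, though MUC1, MUC4 and MUC5B had few counts. The difference was -0.40 for MUC3A, -0.51 for MUC20 and -0.14 for MUC13, and 19.6%, 14.4% and 36.9% of the genes were as low. The median was 0.01 over all these genes and -0.30 over the 1767 genes with more than 10 kb of exon. MUC3A, with 11.4 kb, was thus near the median of the long genes, whereas MUC2, with 12.7 kb, was far below it.

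In vehicle and the low dose, but not in the medium dose, the same mucins were lowest together. Vehicle replicate 1, low-dose replicate 3 and high-dose replicate 2 each had the lowest level of MUC2, MUC5AC, MUC12 and MUC17 in their group. In the medium dose the lowest library was replicate 1 for MUC2, replicate 2 for MUC17 and replicate 3 for MUC5AC and MUC12. The 3 libraries named first had the fewest expected counts of their group (18260755, 21454319 and 15941255), as had medium-dose replicate 1 (21499126). Over genes of at least 5 CPM, the deviations of high-dose replicate 2 correlated with those of vehicle replicate 1 (r = 0.541) and low-dose replicate 3 (0.538). Between these last 2 libraries r was 0.352. The 3 libraries named first also had the highest median of genes of up to 2 kb and the lowest median of genes over 10 kb in their group. Medium-dose replicate 3 had both of these medians as well, at -0.12 and 0.05, and the highest MUC2 of its group. Relative to the vehicle mean, the median log2 level of genes of up to 2 kb was 0.17 in vehicle replicate 1, -0.06 in low-dose replicate 3 and 0.30 in high-dose replicate 2, against -0.24 over 10 kb in the last. An offset for exonic length in each library gave MUC5AC a log2 fold change of 0.59 (SE 0.26) and MUC2 one of -0.56 (SE 0.28) at the high dose, close to the values without it. By GC content, the median in high-dose replicate 2 was 0.199 for genes of up to 40% GC and -0.115 for those over 60%. The GC content was 61.6% in MUC2, 60.3% in MUC5AC, 54.9% in MUC12 and 49.2% in MUC17. It was 52.0% in MUC3A and 44.7% in MUC13. What set these libraries apart was not tested.

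**Figure D4:**
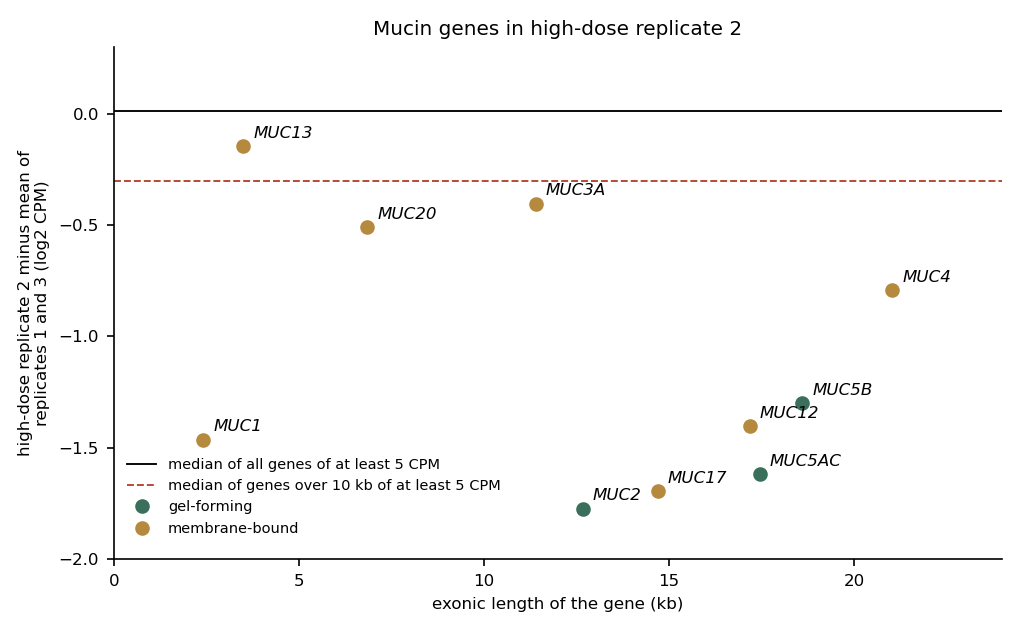
Log2 difference in CPM of high-dose replicate 2 from the mean of replicates 1 and 3 for each mucin gene (points, coloured by class) against its exonic length in kb, with the medians of all genes of at least 5 CPM (solid line, 0.01) and of those over 10 kb (dashed line, -0.30). MUC2, MUC17, MUC5AC, MUC1 and MUC12 lie between -1.77 and -1.40, MUC5B lies at -1.30 and MUC4 at -0.79, while MUC20 (-0.51), MUC3A (-0.40) and MUC13 (-0.14) lie closest to the lines.

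Without high-dose replicate 2, 2 of 10 mucins were called at the high dose, MUC3A lower and MUC5AC higher, against 4.90% of all genes tested (768 of 15674). The median log2 fold change of the 10 mucins at the high dose was -0.04 with all libraries, against 0.005 for all genes tested. It was 0.06 with the medium and 0.18 with the low dose, against -0.01 and -0.001 for all genes.

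The genes that act on mucins were described with 4 further lists. Of the goblet cell secretion genes, 14 of 19 were tested, of which 4 fell and none rose with the high dose (median log2 fold change -0.53), against 2.93% of all genes called. Of these 14 genes, 7 fell when high-dose replicate 2 was left out, against 4.90% of all genes. In a fit by edgeR of the vehicle and high-dose libraries only, 2 of 13 fell, against 1.15% of all genes (172 of 14902). DESeq2 on all libraries called 5, with FCGBP added, against 3.26% of all genes (501 of 15374). Of the transcription factors of mucin and goblet cell genes, 16 of 18 were tested, and 2 fell and none rose (median -0.22). DESeq2 on all libraries called 3, with FOXA2 added, and edgeR on these 2 groups alone called 1 (ATOH1). Of the enzymes of mucin-type O-glycosylation, 25 of 35 were tested, and 1 fell and none rose (median -0.01). Of the partners and sheddases of membrane mucins, all 11 were tested and none was called (median 0.06), by edgeR or by DESeq2 on all libraries, though 3 had an unadjusted p under 0.05, against 20.1% of all genes. No member of the 4 lists was called by edgeR at the medium or low dose. At the medium dose 5 of 14 goblet cell secretion genes, 5 of 16 transcription factors, 2 of 25 enzymes and 1 of 11 partners had an unadjusted p under 0.05, against the same 11.7% of all genes, and at the low dose none did.

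ATOH1, the transcription factor that commits intestinal cells to the secretory lineage, had 4.95, 3.97 and 4.75 CPM in the vehicle libraries. Medium-dose libraries had 2.39, 2.97 and 2.83 CPM and high-dose libraries 1.49, 1.84 and 2.18 CPM. Its medium- and high-dose libraries lay below every vehicle library, and its log2 fold change at the high dose was -1.28 (SE 0.18, adjusted p = 0.00139 by edgeR's quasi-likelihood test). It was -1.26 (SE 0.20, adjusted p = 0.000283) without high-dose replicate 2, and its adjusted p was between 6.53e-07 and 0.0285 over 3 alternatives.

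CREB3L1, a transcription factor of the endoplasmic reticulum that serves secretory cells, had 199, 186 and 195 CPM in the vehicle libraries and 121, 74.6 and 122 CPM at the high dose, without overlap. Its log2 fold change was -0.86 (SE 0.16, adjusted p = 0.00622 by edgeR's quasi-likelihood test), and -0.67 (SE 0.08, adjusted p = 2.72e-05) without replicate 2. In a fit by edgeR of just the 6 vehicle and high-dose libraries its adjusted p was 0.101, the highest of 3 alternatives, whose lowest was 1.28e-05. KLF4, which acts in goblet cell differentiation, had a log2 fold change of 0.42 (SE 0.10, adjusted p = 0.0347) and was under the minimum fold change. SPDEF, which drives goblet cell maturation, had a log2 fold change of 0.14 (SE 0.11, adjusted p = 0.525) at the high dose.

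Among the goblet cell secretion genes, BCAS1 fell from 79.3, 74.3 and 69.1 CPM in vehicle to 38.2, 30.7 and 41.2 CPM at the high dose. The log2 fold change of BCAS1 was -1.01 (SE 0.10, adjusted p = 9.14e-05 by edgeR's quasi-likelihood test). SYTL2, which docks secretory vesicles with RAB27, fell from 29.7, 34.9 and 37.8 CPM to 18.7, 14.9 and 18.2 CPM, with a log2 fold change of -0.98 (SE 0.10, adjusted p = 0.000143). Both were called without replicate 2 as well, at -0.90 and -0.89.

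TFF3, the trefoil peptide secreted together with MUC2, had 10.8, 8.52 and 7.78 CPM in vehicle and 4.73, 6.87 and 5.54 CPM at the high dose. Its log2 fold change was -0.67 (SE 0.17, adjusted p = 0.0387 by edgeR's quasi-likelihood test), and it had its highest high-dose level in replicate 2, where MUC2 was lowest. In a fit by edgeR of just the 6 vehicle and high-dose libraries the call was lost (adjusted p = 0.182, the highest of 3 alternatives, whose lowest was 0.00243). REP15, an effector of RAB15, had 9 to 16 counts in the vehicle libraries and 3, 0 and 5 in those of the high dose. It was called (adjusted p = 0.0342), but its fold change rests on these few counts. FCGBP, the IgG Fc-binding protein of mucus, which was named after its values were seen, was called between the high and low doses (log2 fold change -0.98, SE 0.20, adjusted p = 0.0202) and not against vehicle (-0.73, SE 0.20, adjusted p = 0.0579) by edgeR's quasi-likelihood test. Against vehicle it was called by DESeq2 on all libraries (-0.74, adjusted p = 0.0119). Leaving out high-dose replicate 2 gave -0.49 (adjusted p = 0.00353), under the minimum fold change, and edgeR on these 2 groups alone gave an adjusted p of 0.302. Its high-dose libraries had 20.9, 10.8 and 22.9 CPM.

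GALNT4, which adds the first sugar of O-linked chains, had 22.1, 20.5 and 24.7 CPM in vehicle and 15.2, 13.6 and 14.1 CPM at the high dose, a log2 fold change of -0.65 (SE 0.12, adjusted p = 0.00851 by edgeR's quasi-likelihood test). It shares its sequence with the read-through gene POC1B-GALNT4, so its counts are uncertain. POC1B-GALNT4 had between 1.84 and 7.29 CPM and a log2 fold change of 0.54 (SE 0.43). GCNT3, an enzyme that branches the chains of mucins, had a log2 fold change of 0.23 (SE 0.08, adjusted p = 0.130). Of the 6 goblet cell markers (MUC2, TFF3, FCGBP, CLCA1, SPDEF and ATOH1), CLCA1 was at most 0.0708 CPM in any library. The summed level of the 6 was between 95.2 and 102 CPM in vehicle. In the high-dose replicates it was 85.8, 48.9 and 81.8 CPM, the lowest being replicate 2. MUC2 itself is part of this sum, with 27.8 to 36.5 CPM in vehicle and 31.3, 8.28 and 26.8 CPM in the high-dose replicates. The sum is therefore not a reading apart from MUC2.

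**Figure D5:**
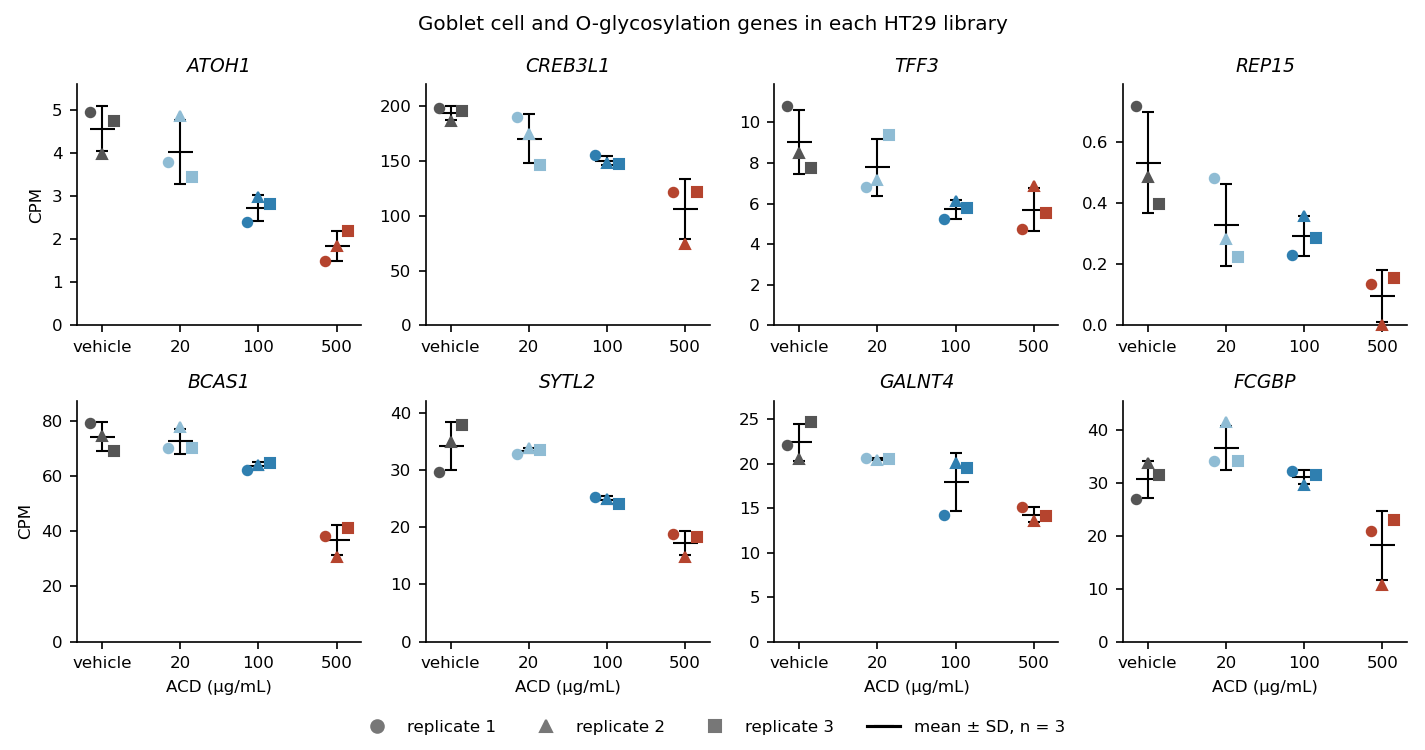
Level in CPM (linear axis from 0) of 8 genes of goblet cells and O-glycosylation in each library of vehicle and of ACD at 20, 100 and 500 µg/mL, with replicates 1 to 3 as circle, triangle and square and the mean ± SD in black. In all 8 genes the libraries of vehicle and 500 µg/mL do not overlap, which was also the case for 22.0% of all genes tested. At 500 µg/mL ATOH1 lies between 1.49 and 2.18 CPM.

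The gene most like each mucin over the 12 libraries was found by Pearson's correlation of log2 CPM among 10617 genes, as a description. The libraries of a group share treatment and depth, and high-dose replicate 2 weighs on these values. MUC3A was most like CREB3L1 (r = 0.967, and 0.965 without high-dose replicate 2), MUC13 was most like SEMA3E (0.986 and 0.977), MUC5AC was most like SIM2 (0.980 and 0.968) and MUC17 was most like BRD2 (0.984 and 0.970). MUC2 was most like PLEKHA6 (0.983) and MUC20 was most like KIF13A (0.970), and these values were 0.878 and 0.833 without high-dose replicate 2. MUC12 was most like ENSG00000243302 (0.938), MUC4 was most like SH3BP4 (0.948), MUC1 was most like FHOD1 (0.935) and MUC5B was most like ARSA (0.876). Between the mucins themselves, r was highest for MUC2 and MUC20 (0.914), but it was 0.482 without high-dose replicate 2. MUC5AC and MUC17 had r = 0.887, and 0.834 without high-dose replicate 2, and MUC3A and MUC13 had 0.873 and 0.789. MUC2 and MUC5AC, neighbours of 1 class, had 0.631, and 0.207 without that library.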

How the data were processed

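RNA of HT29 cells was read as 100-base pairs. The deposited values are expected counts per gene, not normalized, which the authors made with RSEM after trimming with Trim Galore and alignment with STAR (the labels name FastQC 0.11.9, Trim Galore 0.6.5, STAR 2.7.3a and RSEM 1.3.3). GENCODE release 44 of GRCh38 held 98.1% of the gene IDs that had counts. Expected counts were rounded and tested in R 4.3.3 by edgeR 4.0.16 (quasi-likelihood, filterByExpr, TMM, robust) in 1 fit of 12 libraries, and p-values were adjusted by Benjamini-Hochberg over 15374 genes for each comparison. SEs came from the F statistic. DESeq2 1.42.0 was an alternative, beside other scalings, filters, samples, a replicate block, a length offset and each library left out. The fits were tested on simulated data first. Log2 CPM used a prior count of 2. Sequences, exonic lengths and windows came from GENCODE release 44 and GRCh38 with Python 3.11.15. The paper names a different annotation release of GRCh38 for RSEM, so shared windows, overlaps and lengths may differ from those behind the counts. Periods of whole codons from 15 to 180 bases with at least 80% identity were searched. The repeat unit is the shortest period whose run reached most of the length of the longest run found. The copy nearest the middle of its run is printed.

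The genes named are the 10 mucins, members of the lists called at any dose (at most 6 per list), the gene most like each mucin, and genes that share reads with one, and others are named as markers, list members or further mucins after their values were seen. The members and lists were chosen with earlier results of these data known.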

Additional observations from a re-analysis of the deposited data

How the results depend on the processing

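Over 23 alternatives at most, MUC3A kept its direction at each dose, MUC13 was lower at the high and medium doses, and MUC5AC was higher at all 3. At the high dose against vehicle, 1 mucin was called. There were 2 with no minimum fold change (against 5.77% of all genes) and 0 with edgeR on the compared groups alone (against 1.15%). With single libraries left out there were 1 to 2. There were 3 when high-dose replicate 2 was left out of DESeq2 (MUC3A, MUC5AC, MUC17) or of the length offset fit (MUC3A, MUC5AC, MUC1). The share of all genes is not given here for either fit, in any comparison. Both of these fits and the list counts under other settings were chosen after seeing the data. At the medium dose, 0 became 1 (MUC5AC) on the compared groups alone with edgeR (191 of 14927 genes called) or DESeq2 (169 of 14927). The count was also 1 with DESeq2 without high-dose replicate 2, and it stayed at 0 with single libraries left out. High against low dose, 0 became 2 with no minimum fold change, 0 to 1 with single libraries left out, and 1 (MUC5AC) without high-dose replicate 2 in DESeq2 or the length offset fit. High against medium dose, it became 1 with no minimum fold change. Without high-dose replicate 2, 7 goblet cell secretion genes (with AGR2, AGR3 and SPINK4) and 2 enzymes (with FUT3) were called. With edgeR on the compared groups alone there were 2 goblet cell secretion genes and 1 transcription factor.

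Directions turned in low or small values. MUC5B at the medium dose was -0.039 with the length offset and -0.032 when high-dose replicate 2 was also left out. MUC4 at the high dose was 0.027 in DESeq2 without that library. MUC12 was 0.001 with DESeq2 and 0.009 with no filter at the medium dose, and -0.025 and -0.015 with the 2 length offset fits at the low dose. With single libraries left out, log2 fold changes ran from -0.029 to 0.159 (MUC2, medium), -0.029 to 0.290 (MUC2, low), -0.199 to 0.228 (MUC5B, medium), -0.922 to 0.188 (MUC4, high), -0.297 to 0.491 (MUC4, medium), -0.187 to 0.434 (MUC12, high), -0.107 to 0.147 (MUC12, medium), -0.068 to 0.220 (MUC12, low), -0.078 to 0.582 (MUC17, high) and -0.002 to 0.083 (MUC20, low). Where no cause is given, the cause was not tested. Of 18 pairs of libraries with the same replicate number, 5 had correlated deviations above 0.1, so the numbers were not taken to pair the libraries. With the replicate block, 1 mucin (MUC3A) was called at the high dose and 0 in each other comparison, and 379 genes in place of 451 at the high dose, and the adjusted p was 0.110 for MUC13 (high against medium dose) and 0.0642 for MUC3A (high against low dose). The counts of MUC1, MUC4 and MUC5B, and 3 libraries per group, limit what could be detected.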
